A study of Mus musculus with 6 samples.

Results

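The METTL (methyltransferase-like) genes encode enzymes that move a methyl group from S-adenosylmethionine to RNA, protein or a small molecule. Mettl3 and Mettl14 write 6-methyladenosine into messenger RNA, Mettl1, Mettl2, Mettl6 and Mettl8 modify transfer RNA, and many of the others methylate a lysine, histidine, arginine or N-terminal residue of a single protein or a few. Translation elongation factors, Hsp70 chaperones and the ATPase Vcp are among the known protein substrates, and the METTL21 group holds the members best known from skeletal muscle. Members were taken by name: protein-coding genes whose symbol is Mettl followed by a number, and the renamed relatives Vcpkmt, Eef2kmt, Camkmt and Eef1akmt1 to Eef1akmt4. Of the 35 genes that match, 34 are described, among 41025 genes in each table, and Eef1akmt4 is not analysed here. There were 5 members in the METTL21 group (Mettl21a, Mettl21c, Mettl21e, Vcpkmt and Eef1akmt3) and 29 outside it.

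The series holds RNA-seq of the tibialis anterior, a fast hindlimb muscle, from C57BL/6 mice 8 weeks of age. There were 3 libraries labelled Mettl21e knockout and 3 labelled wild type. The sources used here do not say how the allele was made or which sex the mice were. They call the replicates biological without saying that each is a separate animal, so a p-value here measures no more than the spread of these 6 libraries. The values are FPKM, fragments divided by gene length and library total, and the totals recovered from them ran from 8476591 to 10435095 fragments in libraries labelled knockout and from 8842349 to 10856669 in those labelled wild type. In the deepest and the shallowest library, 1 fragment adds 0.0921 to 0.118 FPKM to a gene 1 kb long. The summed level of 6 muscle fibre markers was 64419 to 66793 FPKM in libraries labelled knockout and 65350 to 71433 FPKM in those labelled wild type, and the liver markers Alb and Apoa1 together reached at most 0.320 FPKM labelled knockout and 0.103 FPKM labelled wild type, with Apoa1 at 0 in all 6. The libraries are therefore muscle by their markers. Other cell types were present at low levels. Summed endothelial markers were at 101 to 119 FPKM labelled knockout and 85.5 to 139 FPKM labelled wild type, fibroblast markers at 170 to 239 FPKM labelled knockout and 166 to 344 FPKM labelled wild type, and macrophage markers at 2.46 to 3.51 FPKM labelled knockout and 1.96 to 6.62 FPKM labelled wild type. Adipocyte markers were at 77.9 to 88.3 FPKM labelled knockout and 83.5 to 107 FPKM labelled wild type. Most of that sum was Fabp4, at 70.8 to 74.2 FPKM labelled knockout and 77.0 to 88.6 FPKM labelled wild type. The other adipocyte markers Adipoq, Plin1 and Cidec averaged 5.03, 3.48 and 3.49 FPKM over the 6 libraries. Schwann cell markers were at 56.3 to 67.0 FPKM labelled knockout and 55.4 to 69.4 FPKM labelled wild type. All of these sums overlapped between the labels. The 4 endothelial, 4 fibroblast, 4 adipocyte and 4 macrophage markers each had a lower mean in libraries labelled knockout, with 0 past the test among those tested. Groups of Fabp4 did not overlap (unadjusted p = 0.0322, limma adjusted p = 0.988), as was the case for 9.48% of all tested genes in either direction. Col1a1, a collagen gene of fibroblasts, was at 29.1 to 49.3 FPKM in libraries labelled knockout. Library 1 labelled wild type, at 27.2 FPKM, stood apart from libraries 2 and 3 of its label, at 94.95 and 105 FPKM. This library was also the lowest of the 6 for Col3a1, Pdgfra, Pecam1, Cdh5, Kdr, Tie1, Cd68, Csf1r, Adipoq and Plin1. It was not the lowest for Dcn, Adgre1, Ptprc, Cidec or Fabp4. The lower knockout means of most of these markers thus rest on libraries 2 and 3 labelled wild type. The part of these cells in any value below was not tested, and 0 members passed the test when library 1 labelled wild type was left out. In whole muscle, fewer cells of a type and less RNA per cell cannot be told apart.

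The targeted gene did not tell the labels apart. Mettl21e, a muscle-enriched protein lysine methyltransferase (ENSMUSG00000046828), was at 1.64, 1.45 and 1.88 FPKM in libraries labelled knockout, against 2.46, 0.309 and 1.23 FPKM in libraries labelled wild type. The 3 values labelled knockout lie inside the range of those labelled wild type. The log2 difference was 0.29 (95% interval -0.42 to 1.01, adjusted p = 0.988 in limma). On this low gene the pseudocount of 1 holds the difference down: it was 0.65 with a pseudocount of 0.1, 0.74 with 0.01 and 0.74 (SE 0.59) in limma voom on the recovered fragments, with no adjusted p below 0.987. It was -0.07 when library 2 labelled wild type was left out and 0.63 when library 1 of that label was. By exact permutation, two-sided, p was 0.7, where 3 against 3 libraries cannot go below 0.1. The sources used here do not say which exons the allele lacks, and the libraries are called by their labels throughout.

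Promoter windows of the members show what kind of start the family has. RefSeq windows of 300 bases (build GRCm38.p6, 250 before and 50 after an annotated start) exist for 26 members, 1 of them, Mettl6, with a pair, which gives 27 windows. Eef1akmt1, Mettl21c, Mettl2, Mettl14, Mettl15, Mettl21e, Mettl7a3 and Eef1akmt3 have no entry. The windows of the most abundant members, Mettl22 (chr16:8470563-8470862, plus strand) and Mettl23 (chr11:116843265-116843564, plus strand), of an abundant member with few CG dinucleotides, Mettl11b (chr1:163725183-163725482, minus strand), and of the neighbouring duplicates Mettl7a1 (chr15:100304567-100304866, plus strand) and Mettl7a2 (chr15:100352950-100353249, plus strand) are given 5′ to 3′ on the gene's strand, with every CG dinucleotide, the site of DNA methylation, in capitals.
Mettl22: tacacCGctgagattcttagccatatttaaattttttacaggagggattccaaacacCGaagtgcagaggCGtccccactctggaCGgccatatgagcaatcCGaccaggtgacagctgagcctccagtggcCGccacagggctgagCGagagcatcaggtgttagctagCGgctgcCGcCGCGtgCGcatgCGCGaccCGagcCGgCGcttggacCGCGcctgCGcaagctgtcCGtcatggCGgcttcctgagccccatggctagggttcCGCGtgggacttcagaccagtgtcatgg
Mettl23: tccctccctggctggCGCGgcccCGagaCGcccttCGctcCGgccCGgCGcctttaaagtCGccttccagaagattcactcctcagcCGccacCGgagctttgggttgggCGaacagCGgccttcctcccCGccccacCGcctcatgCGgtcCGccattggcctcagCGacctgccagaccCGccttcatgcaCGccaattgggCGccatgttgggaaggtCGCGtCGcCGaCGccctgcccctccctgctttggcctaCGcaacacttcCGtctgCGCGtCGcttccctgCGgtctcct
Mettl11b: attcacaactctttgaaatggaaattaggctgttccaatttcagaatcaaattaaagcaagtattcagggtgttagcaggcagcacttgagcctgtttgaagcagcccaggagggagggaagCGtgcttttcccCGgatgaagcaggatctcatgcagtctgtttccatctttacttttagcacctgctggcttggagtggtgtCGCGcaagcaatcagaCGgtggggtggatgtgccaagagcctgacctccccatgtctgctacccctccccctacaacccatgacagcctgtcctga
Mettl7a1: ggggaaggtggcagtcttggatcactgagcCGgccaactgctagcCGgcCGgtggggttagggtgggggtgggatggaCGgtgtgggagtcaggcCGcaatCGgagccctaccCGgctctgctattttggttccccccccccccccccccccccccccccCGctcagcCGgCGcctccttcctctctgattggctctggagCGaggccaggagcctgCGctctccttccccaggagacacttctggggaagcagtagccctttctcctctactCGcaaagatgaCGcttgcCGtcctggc
Mettl7a2: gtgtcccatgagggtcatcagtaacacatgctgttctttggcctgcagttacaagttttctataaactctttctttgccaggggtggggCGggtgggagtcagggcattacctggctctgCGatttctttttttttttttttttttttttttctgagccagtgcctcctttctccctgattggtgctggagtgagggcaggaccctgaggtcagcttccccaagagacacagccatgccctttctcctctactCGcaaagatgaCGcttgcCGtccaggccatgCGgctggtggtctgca

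Most members with a window start in CG-rich sequence, among them abundant members and some below 1 FPKM. The least abundant with a window, Mettl7b and Mettl7a2, do not. The median member window held 21 CG, where the median of all 32851 mouse windows held 7. Of the 27 member windows, 24 held at least 13 CG, as 37.9% of all windows did. The other 3 held 6 or fewer, as 47.9% of all windows did, and these were Mettl11b with 5 CG, Mettl7b with 5 CG and Mettl7a2 with 6 CG. Among these 3, Mettl11b was at a mean of 33.3 FPKM, Mettl7b at 0.0440 FPKM and Mettl7a2 at 0 FPKM. The bounds of 13 and 6 CG are the edges of a gap in the members' own counts. The pair of Mettl6 windows also overlaps, so the counts beside the shares of all windows are a description, not a test. The windows of Mettl22 and Mettl23 held 24 and 32 CG, that of Mettl26 held 20 and that of Mettl7a1 held 15. Of the members below 1 FPKM, Mettl24 and Camkmt, at 0.378 and 0.930 FPKM, held 17 and 16 CG.

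**Figure D1:**
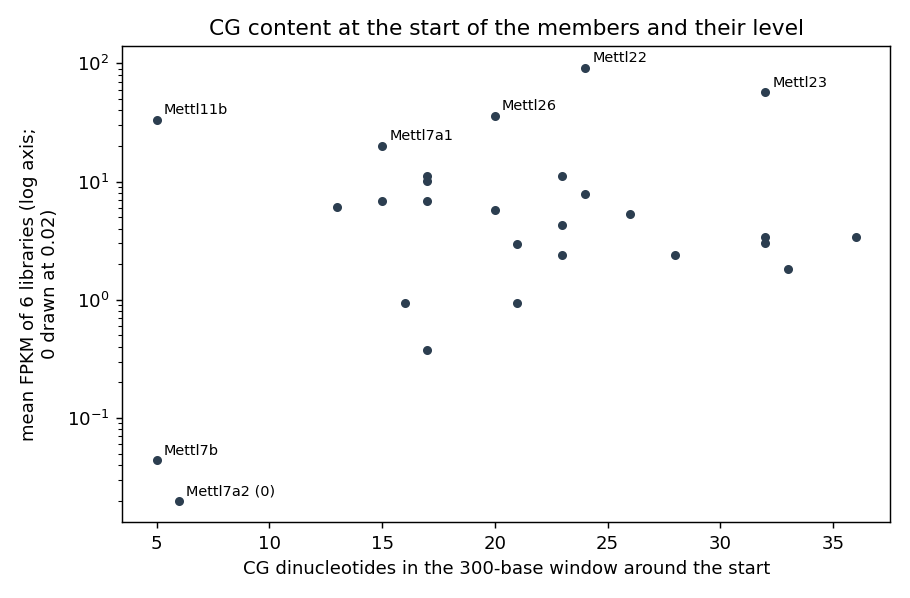
Each point is 1 promoter window of a member, with the number of CG dinucleotides in its 300 bases on the x axis and the member's mean FPKM over 6 libraries on the y axis (log axis, 0 drawn at the bottom). Only 3 windows hold 6 CG or fewer, and they include Mettl11b, among the most abundant members, and the 2 least abundant ones that have a window.

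Other short motifs were searched on both strands. The E-box CANNTG, the letters read by myogenic and other helix-loop-helix factors, was in 19 of the 27 windows and in 72.3% of all windows. Its form CAGCTG, whose matches are all among those of CANNTG, was in 5 windows (Mettl22, Mettl26, Mettl21a, Vcpkmt and Mettl18) and in 16.3% of all. CCAAT was in 11 windows, against 37.4% of all, and TATAAA was in 1, that of Mettl7a2, against 13.6% of all. The windows of Mettl7a1 and Mettl7a2 share an identical run of 40 bases near their 3′ ends, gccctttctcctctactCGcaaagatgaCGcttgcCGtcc, which holds 3 CG and lies at chr15:100304823-100304862 and chr15:100353186-100353225. A match of letters is not a bound site.

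In tibialis anterior a few members outside the METTL21 group held most of the family's transcript level. Mettl22, a lysine methyltransferase known in human cells for the DNA- and RNA-binding protein Kin, was highest at a mean of 92.0 ± 3.67 FPKM (SD, n = 6), above 96.3% of the 21633 protein-coding genes listed. Mettl23, an arginine methyltransferase of histone H3, followed at 57.2 ± 6.98 FPKM. Its exons share 460 bases with Srsf2 on the other strand and 257 with Mfsd11 on its own. This leaves its level, and any share of the family that includes it, uncertain. Then came Mettl26, of little known function, at 36.1 ± 3.14 FPKM, and Mettl11b, an N-terminal methyltransferase also called NTMT2 in human, at 33.3 ± 3.26 FPKM. Mettl7a1, whose human relative methylates small thiols at the endoplasmic reticulum and lipid droplets, was at 20.2 ± 1.88 FPKM. Eef1akmt1, one of the lysine methyltransferases of elongation factor eEF1A, was at 18.0 ± 1.83 FPKM. In mm10 their genes lie on chromosome 16 from 8470788 to 8490684 (Mettl22, ENSMUSG00000039345), on chromosome 11 from 116843278 to 116854263 (Mettl23, ENSMUSG00000090266), on chromosome 17 from 25875074 to 25877169 (Mettl26, ENSMUSG00000025731), on chromosome 1 from 163702256 to 163725232 (Mettl11b, ENSMUSG00000040113), on chromosome 15 from 100304140 to 100328662 (Mettl7a1, ENSMUSG00000054619) and on chromosome 14 from 57549597 to 57571612 (Eef1akmt1, ENSMUSG00000021951). These 6 held 67.9% of the FPKM summed over the family, with a range of 66.6% to 69.2% over libraries. Mettl22 and Mettl23 alone held 39.4%, a share that falls to 25.7% or 21.1% with other gene lengths, described further on. The METTL21 group held 5.56% in libraries labelled knockout and 5.56% in those labelled wild type.

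The library values behind this order were close. Mettl22 was at 88.5, 89.0 and 88.7 FPKM in libraries labelled knockout, against 96.2, 93.9 and 95.7 FPKM in those labelled wild type. Mettl23 was at 50.1, 58.6 and 64.3 FPKM in libraries labelled knockout, against 66.3, 50.6 and 53.5 FPKM in those labelled wild type. Mettl22 was higher than Mettl23 in all 6 libraries and their ranges did not meet. Mettl26 was at 34.0, 36.4 and 36.0 FPKM in libraries labelled knockout, against 41.7, 36.0 and 32.4 FPKM in those labelled wild type. Mettl11b was at 32.4, 32.0 and 37.9 FPKM in libraries labelled knockout, against 34.8, 28.2 and 34.5 FPKM in those labelled wild type. Mettl26 was the higher of these neighbours in 4 of 6 libraries, so their order is within the spread. Mettl7a1 was at 21.8, 18.8 and 21.1 FPKM in libraries labelled knockout, against 22.6, 18.1 and 18.7 FPKM in those labelled wild type. Eef1akmt1 was at 16.8, 15.6 and 18.3 FPKM in libraries labelled knockout, against 20.8, 19.1 and 17.5 FPKM in those labelled wild type. Mettl7a1 exceeded Eef1akmt1 in 5 of 6 libraries and their ranges met, while every value of Eef1akmt1 was above every value of the next member, Mettl17.

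**Figure D2:**
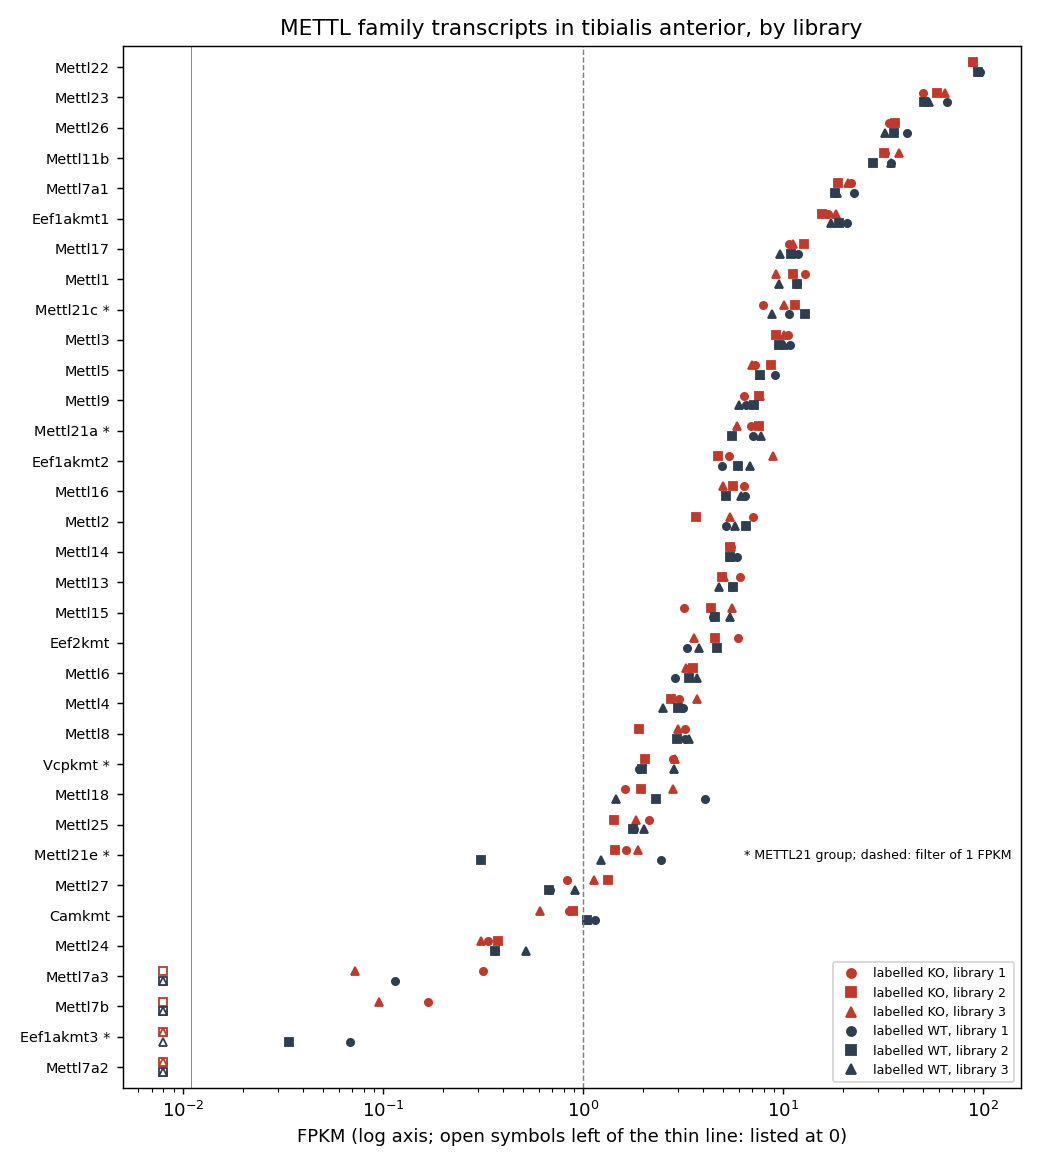
FPKM of the 34 members (log axis) in each library, red for the 3 labelled knockout and dark blue for the 3 labelled wild type, ordered by the mean of 6 libraries; open symbols left of the thin line are listed at 0 and the dashed line marks the filter of 1 FPKM. The colours are apart for Mettl22 and Camkmt and overlap or tie for the other members, and the family runs from 92.0 FPKM down to 0.

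Below the first 6 the order was tighter. There were 10 members at 10 FPKM or more, 8 between 5 and 10 FPKM, 9 between 1 and 5 FPKM and 7 below 1 FPKM. Of the 33 pairs of neighbours in the order, 6 had ranges that did not meet: Mettl22 over Mettl23, Mettl23 over Mettl26, Mettl11b over Mettl7a1, Eef1akmt1 over Mettl17, Mettl3 over Mettl5, and Camkmt over Mettl24. In 8 pairs the first was higher in all 6 libraries. In 2 of these, Eef2kmt over Mettl6 and Mettl24 over Mettl7a3, the ranges met all the same. The other neighbours did not keep 1 order in all 6 libraries and did not differ beyond their spread, among them Mettl17, Mettl1, Mettl21c and Mettl3 at 11.2, 11.1, 10.3 and 10.1 FPKM. The same 10 members were the highest 10 in the libraries labelled knockout, in those labelled wild type and in each single library.

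Levels per length rest on the length the authors divided by, and this mattered for the first ranks. The lengths that turn the FPKM into whole fragments equalled, within 1 base, the mean length of a gene's annotated transcripts for 65.9% of the 11517 genes with at least 100 fragments, and for 21 members. They equalled the union of its exons for 7.64%. Where a gene has short processed transcripts in its annotation, such a length is far below that of its longest transcript, and it was below it for 30 of the 33 members with a value above 0. For Mettl22 the length was 924 bases, against 3310 for the longest of its 6 annotated transcripts and 5768 for its exon union, and it was also below the mean of those 6, 1322 bases. With those lengths in place of the authors', its level would be 25.7 or 14.7 FPKM, in place of 92.0.

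Recomputed on the longest transcript or on the exon union, Mettl11b had the highest mean, at 26.1 and 25.3 FPKM. Mettl22 was then at rank 2 and rank 4. On the longest transcript the first ranks were within the spread. Mettl11b was at 26.1 ± 2.55, Mettl22 at 25.7 ± 1.02 and Mettl23 at 25.2 ± 3.08 FPKM (SD over libraries). In libraries labelled wild type the mean of Mettl22 was above that of Mettl11b, at 26.6 against 25.5 FPKM. On the exon union the lowest library of Mettl11b, at 21.4 FPKM, was above the highest of Mettl23, at 19.3 FPKM. Mettl23 came to 25.2 and 16.7, Mettl26 to 20.9 and 14.7, Mettl7a1 to 19.5 and 14.6, and Eef1akmt1 to 17.1 and 15.9 FPKM on the longest transcript and on the exon union in turn. The order among these 6 thus depended on the length, but the set did not: the same 6 members were the highest under all 3 lengths, with 67.9%, 67.8% and 68.4% of the family total. Their lowest was 1.61 times the seventh member with the authors' length, 2.56 times with the longest transcript and 3.55 times with the exon union. Further down, Mettl16 moved from rank 15 to 24 and 21, Mettl3 from 10 to 8 and 19, Mettl17 from 7 to 13 and 10, and Vcpkmt from 24 to 18 and 13. The ratio of FPKM between libraries does not depend on the length, but a difference in log2(FPKM + 1) and the filter at 1 FPKM do.

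**Figure D3:**
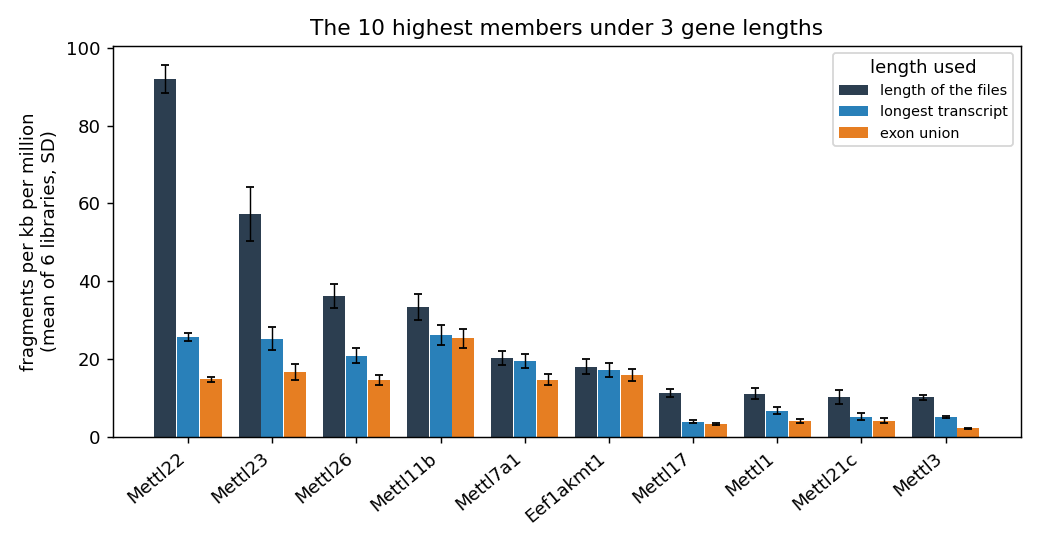
Mean level of the 10 highest members in FPKM, with SD over 6 libraries, under the length of the deposited values (dark blue), the longest annotated transcript (blue) and the exon union (orange). The first 6 members stand above the other 4 under each length, while Mettl22 falls from 92.0 to 25.7 and 14.7 and Mettl11b stays between 33.3 and 25.3.

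No member passed the test of a difference between the labels. limma on log2(FPKM + 1) was fitted over the 11383 genes whose mean reached 1 FPKM, which included 27 members, 23 outside the METTL21 group and 4 in it. It called 0 members at an adjusted p of 0.05, with adjusted values from 0.988 to 0.9998, and 0 at an unadjusted p of 0.05. Over all 11383 genes it called 0 (0%), and 523 (4.59%) had an unadjusted p below 0.05. limma voom on the recovered fragments also called 0 members, adjusted or not. On the log2 scale 14 tested members were higher and 13 lower in libraries labelled knockout, with a median of 0.00058 beside -0.02 over all tested genes. The median absolute difference was 0.08 beside 0.09 over all tested genes. A p above the threshold does not show equal levels, and the 95% intervals give what was resolved: that of 26 of the 27 lay within 1 log2 unit of 0 and that of 18 within 0.5. The scale understates changes of low genes.

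**Figure D4:**
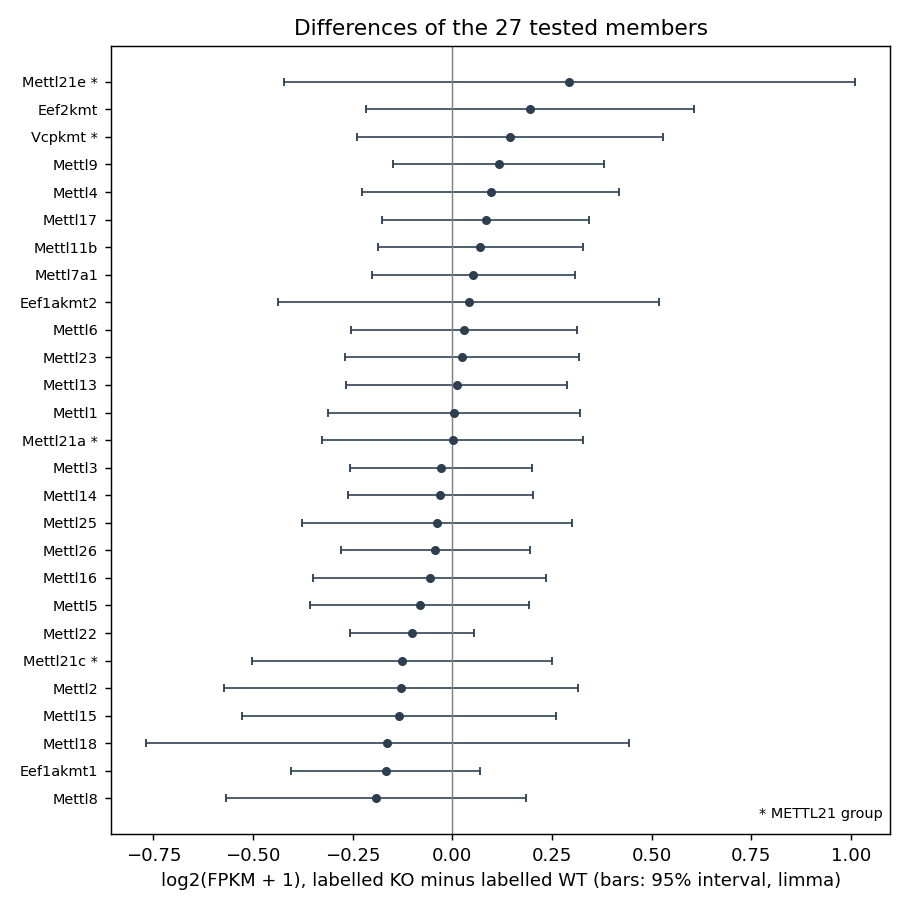
Difference in log2(FPKM + 1), labelled knockout minus labelled wild type, with its 95% interval from limma, for the 27 tested members; an asterisk marks the METTL21 group. Every interval includes 0, and the points run from -0.19 for Mettl8 to 0.29 for Mettl21e.

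Mettl22 was the 1 tested member whose groups did not overlap, where 9.48% of all tested genes did not overlap in either direction, 5.64% being lower and 3.84% higher in libraries labelled knockout. It averaged 88.7 ± 0.239 FPKM in libraries labelled knockout and 95.3 ± 1.22 FPKM in those labelled wild type (SD, n = 3 each). The log2 difference was -0.10 (95% interval -0.26 to 0.05, unadjusted p = 0.171, limma adjusted p = 0.988), and the exact two-sided permutation test gave p = 0.1, the smallest that 3 against 3 libraries allow. Mettl22 had 794, 858 and 695 recovered fragments in libraries labelled knockout and 956, 942 and 782 in those labelled wild type. Its counting intervals overlap between labels, for example 82.3 to 95.6 FPKM for library 3 labelled knockout and 89.1 to 103 FPKM for library 3 labelled wild type (exact Poisson, 95%, counting error only). Each such interval covers 1 library, so their overlap does not decide whether the labels differ.

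Among the protein lysine methyltransferases outside the METTL21 group, the eEF1A enzymes spanned a wide range. Eef1akmt1 averaged 16.9 ± 1.38 FPKM in libraries labelled knockout and 19.1 ± 1.68 FPKM in those labelled wild type (SD, n = 3 each), a log2 difference of -0.17 with the smallest unadjusted p of the family, 0.143. Its groups overlapped. Eef1akmt2 was at 5.36, 4.71 and 8.86 FPKM in libraries labelled knockout, against 4.97, 5.99 and 6.86 FPKM in those labelled wild type, with 34 to 52 fragments behind each value. Mettl13, which in human cells methylates both the N-terminus and a lysine of eEF1A, averaged 5.38 ± 0.604 FPKM labelled knockout and 5.33 ± 0.476 FPKM labelled wild type. Eef2kmt, the enzyme of elongation factor eEF2, averaged 4.70 ± 1.21 FPKM labelled knockout and 3.94 ± 0.710 FPKM labelled wild type, with overlapping values. Its exons share 472 bases with Alg1, transcribed the opposite way, which leaves its value uncertain if strand was ignored in counting. Camkmt, which methylates calmodulin, was at 0.848, 0.887 and 0.607 FPKM in libraries labelled knockout, against 1.15, 1.04 and 1.05 FPKM in those labelled wild type. Its groups did not overlap, but it was under the filter and rests on 5 to 12 fragments a library, so it was not tested.

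The remaining protein methyltransferases of named function were less abundant than Mettl23 and Mettl11b. Mettl9, a histidine methyltransferase with the respiratory subunit Ndufb3 among its substrates, averaged 7.20 ± 0.705 FPKM labelled knockout and 6.56 ± 0.554 FPKM labelled wild type. Mettl18, the histidine methyltransferase of ribosomal protein Rpl3, was at 1.62, 1.96 and 2.82 FPKM in libraries labelled knockout, against 4.06, 2.32 and 1.47 FPKM in those labelled wild type. Library 1 labelled wild type was the highest for Mettl18 and library 3 labelled wild type the lowest, so the groups overlapped fully. With Mettl23 and Mettl11b, these N-terminal, histidine and arginine enzymes held 26.95% of the family FPKM in libraries labelled knockout and 25.7% in those labelled wild type.

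The adenine N6 methyltransferases of RNA sat in the middle of the order. Mettl3, the catalytic subunit of the messenger RNA writer, was at 10.5, 9.28 and 10.1 FPKM in libraries labelled knockout, against 10.9, 9.59 and 10.1 FPKM in those labelled wild type. Mettl14, its structural partner, was at 5.47, 5.44 and 5.49 FPKM in libraries labelled knockout, against 5.92, 5.41 and 5.48 FPKM in those labelled wild type. Both overlapped between labels, and their SD over 6 libraries was 5.82% of the mean for Mettl3 and 3.46% for Mettl14. Mettl3 shares 933 exon bases, 18.4% of its exons, with Tox4 on the other strand, and Tox4 was at 30.9 FPKM labelled knockout and 29.2 FPKM labelled wild type, which leaves the value of Mettl3 uncertain without strand. Mettl5, which with its cofactor Trmt112 modifies small-subunit ribosomal RNA, averaged 7.66 ± 0.919 FPKM labelled knockout and 8.15 ± 0.796 FPKM labelled wild type. It shares 169 exon bases with Ssb on the other strand, at a mean of 30.0 FPKM, and the same limit applies. Mettl16, the enzyme of U6 small nuclear RNA, averaged 5.66 ± 0.682 FPKM labelled knockout and 5.92 ± 0.667 FPKM labelled wild type. Mettl4, which acts on U2 small nuclear RNA, averaged 3.17 ± 0.502 FPKM labelled knockout and 2.89 ± 0.329 FPKM labelled wild type. Of the 5, 1 was higher and 4 were lower in libraries labelled knockout, with 0 past the test.

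The transfer RNA enzymes were led by Mettl1, which with Wdr4 makes 7-methylguanosine and was at 12.9, 11.2 and 9.27 FPKM in libraries labelled knockout, against 11.8, 11.7 and 9.51 FPKM in those labelled wild type. Its gene begins head to head with Eef1akmt3, an eEF1A methyltransferase of the METTL21 group, and the exons of the pair share 100 bases on opposite strands. Eef1akmt3 had 0, 0 and 0 fragments in libraries labelled knockout and 2, 1 and 0 in those labelled wild type, a mean of 0.0170 FPKM over 6 libraries, below the 3 fragments taken as the floor. Mettl1 was thus at a mean of 11.1 FPKM and Eef1akmt3 at a mean that 3 fragments in all account for. The shared bases lie at the outermost annotated start of Mettl1. Its RefSeq promoter window (chr10:127041682-127041981) does not include them. Mettl2, Mettl6 and Mettl8 make 3-methylcytidine, Mettl6 with seryl-tRNA synthetase and Mettl8 in mitochondria. Mettl2 was at 7.05, 3.68 and 5.41 FPKM in libraries labelled knockout, against 5.18, 6.51 and 5.79 FPKM in those labelled wild type. Library 1 labelled knockout was the highest of the 6 and library 2 labelled knockout the lowest. Mettl6 averaged 3.42 ± 0.124 FPKM labelled knockout and 3.34 ± 0.410 FPKM labelled wild type. Mettl8 averaged 2.71 ± 0.697 FPKM labelled knockout and 3.18 ± 0.225 FPKM labelled wild type, a log2 difference of -0.19 (95% interval -0.57 to 0.18), the lowest of the tested members. It was -0.03 when library 2 labelled knockout, at 1.91 FPKM the lowest of the 6, was left out.

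Mettl17 and Mettl15 serve the mitochondrial ribosome, Mettl17 in its assembly and Mettl15 as a methyltransferase of its small-subunit RNA. Mettl17 was at 10.7, 12.7 and 11.2 FPKM in libraries labelled knockout, against 11.9, 10.98 and 9.67 FPKM in those labelled wild type. Mettl15 averaged 4.38 ± 1.18 FPKM labelled knockout and 4.83 ± 0.528 FPKM labelled wild type. Both overlapped between labels.

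Close relatives among the METTL7 enzymes differed widely in level. Mettl7a1 was among the first 6, while its neighbours on chromosome 15, Mettl7a2 and Mettl7a3, were at 0 FPKM in all 6 libraries and at 0.0844 FPKM on average. Mettl7a3 had 5, 0 and 1 fragments in libraries labelled knockout and 2, 0 and 0 in those labelled wild type. Mettl7b, a relative linked to lipid droplets in liver, had 2, 0 and 1 fragments in libraries labelled knockout and none in those labelled wild type. Of the 50-base words in their transcripts, 63.2% for Mettl7a2, 48.7% for Mettl7a3 and 17.2% for Mettl7a1 also occur in other genes, mostly in each other, so how shared reads were assigned bears on these values, and the files do not say.

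The members of less known function were led by Mettl26. Mettl25 averaged 1.80 ± 0.361 FPKM labelled knockout and 1.87 ± 0.132 FPKM labelled wild type. Its exons share 305 bases with Ccdc59 on the other strand, at a mean of 5.27 FPKM, so its value is uncertain if strand was ignored. Mettl27 was at 0.835, 1.34 and 1.13 FPKM in libraries labelled knockout, against 0.685, 0.679 and 0.917 FPKM in those labelled wild type, on 10 to 19 fragments, and was under the filter. Mettl24 ranged from 0.309 to 0.376 FPKM in libraries labelled knockout and from 0.361 to 0.518 FPKM in those labelled wild type.

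In the METTL21 group Mettl21c, the other muscle-enriched member, was highest at 7.90, 11.4 and 10.1 FPKM in libraries labelled knockout, against 10.7, 12.9 and 8.81 FPKM in those labelled wild type. Mettl21a, which methylates Hsp70 chaperones, averaged 6.78 ± 0.870 FPKM labelled knockout and 6.80 ± 1.11 FPKM labelled wild type. Vcpkmt, the enzyme of Vcp, averaged 2.58 ± 0.456 FPKM labelled knockout and 2.25 ± 0.536 FPKM labelled wild type. Over the 6 libraries, 8 members averaged above Mettl21c and 26 above Mettl21e.

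The scatter of the members is given on 2 scales. The SD over 6 libraries was largest relative to the mean for Mettl21e (48.0%), Mettl18 (40.5%), Eef1akmt2 (25.3%), Eef2kmt (22.6%) and Mettl2 (20.9%), and smallest for Mettl14 (3.46%), Mettl22 (3.98%) and Mettl3 (5.82%). The variance between libraries of 1 label was set against the variance that counting the recovered fragments alone would give. This ratio has 4 degrees of freedom and, for a given relative scatter, grows with the number of fragments, so it does not rank members by scatter. The median ratio of the 27 tested members was 1.999. It was above 4 for 7 of them: Mettl21e (11.5), Mettl23 (8.34), Mettl18 (5.95), Mettl21c (5.92), Mettl11b (5.14), Mettl2 (4.12) and Mettl7a1 (4.12). It was below 1 for 6, the lowest being Mettl22 (0.0801), Mettl14 (0.221) and Mettl3 (0.469). The small spread of Mettl22 within each label, 0.239 FPKM for the 3 labelled knockout, is therefore less than counting alone would give on average. Mettl23 shares 33.9% of its 50-base words with other genes, and its exons overlap Srsf2 and Jmjd6 on the other strand and Mfsd11 on its own. Mettl11b shares none.

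**Figure D5:**
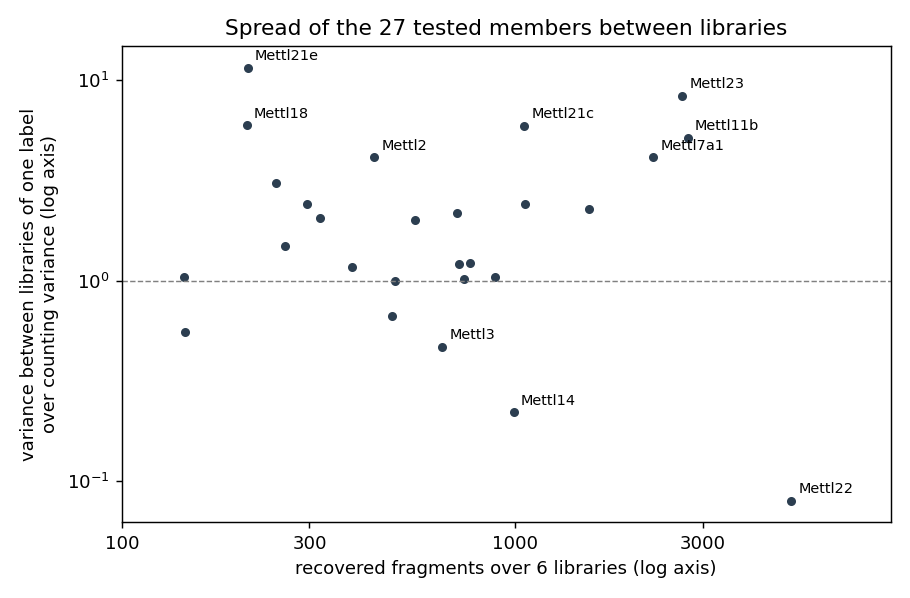
Variance between libraries of 1 label over the variance expected from counting fragments (y, log axis; dashed line at 1) against the fragments recovered over 6 libraries (x, log axis) for the 27 tested members. Mettl21e and Mettl23 lie at 11.5 and 8.34, and Mettl22, with the most fragments, lies lowest at 0.0801.

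No partner or substrate of the enzymes passed the test either. Of 41 such genes, 40 were tested, 18 were higher and 22 lower in libraries labelled knockout, 0 passed the adjusted test and 2 had an unadjusted p below 0.05, beside 4.59% of all genes. The m6A writer needs Wtap, which averaged 23.9 ± 1.79 FPKM labelled knockout and 22.8 ± 1.61 FPKM labelled wild type, above Mettl3 and Mettl14, while its other subunits Zc3h13 and Rbm15 averaged 4.43 and 3.90 FPKM labelled knockout and 4.08 and 3.76 FPKM labelled wild type. The demethylases Alkbh5 and Fto were higher in FPKM than the writers, at 55.2 ± 2.96 and 35.3 ± 1.84 FPKM labelled knockout and at 55.1 ± 3.23 and 33.7 ± 2.49 FPKM labelled wild type. Partner levels were not recomputed on other gene lengths, so any order between genes, here and below, holds for the authors' length only. The readers Ythdf3, Ythdf1 and Ythdf2 averaged 19.5, 19.0 and 10.3 FPKM labelled knockout and 19.1, 19.1 and 10.9 FPKM labelled wild type. Pcif1, which methylates the first adenosine after the cap, averaged 17.4 FPKM labelled knockout and 16.2 FPKM labelled wild type, and Zcchc4, the enzyme of large-subunit ribosomal RNA, averaged 4.30 FPKM labelled knockout and 3.81 FPKM labelled wild type.

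Of the cofactors, Sars, seryl-tRNA synthetase, averaged 59.5 FPKM labelled knockout and 61.9 FPKM labelled wild type, and Trmt112 averaged 21.6 FPKM labelled knockout and 20.8 FPKM labelled wild type. Wdr4 averaged 5.44 FPKM labelled knockout and 5.01 FPKM labelled wild type. Ntmt1, the close relative of Mettl11b, was lower than it, at 10.5 ± 1.40 FPKM labelled knockout and 12.0 ± 0.940 FPKM labelled wild type. Etfbkmt and Atpsckmt, lysine methyltransferases of mitochondrial proteins, averaged 9.22 and 5.37 FPKM labelled knockout and 7.46 and 6.16 FPKM labelled wild type, and the groups of Atpsckmt did not overlap. Of the genes of the mitochondrial ribosome, the assembly factor Rbfa and the ribosomal RNA enzymes Nsun4 and Mrm3 were highest, at 19.4, 16.1 and 13.4 FPKM labelled knockout and 20.2, 17.7 and 15.8 FPKM labelled wild type. Tfb1m, the dimethyladenosine enzyme of the mitochondrial small-subunit RNA, was at 2.56, 3.83 and 4.18 FPKM in libraries labelled knockout, against 5.68, 4.37 and 5.03 FPKM in those labelled wild type. Its groups did not overlap and its log2 difference was -0.43 (unadjusted p = 0.0330, limma adjusted p = 0.988). Among the substrates, the muscle form of eEF1A, Eef1a2, averaged 720 FPKM labelled knockout and 693 FPKM labelled wild type, and the constitutive Hsp70 Hspa8 averaged 611 FPKM labelled knockout and 694 FPKM labelled wild type. Eef2 averaged 501 FPKM labelled knockout and 450 FPKM labelled wild type, and its groups did not overlap (unadjusted p = 0.0780, limma adjusted p = 0.988). Hspa5, the Hsp70 of the endoplasmic reticulum, averaged 112 ± 6.81 FPKM labelled knockout and 132 ± 6.39 FPKM labelled wild type, a log2 difference of -0.24 (unadjusted p = 0.0154, limma adjusted p = 0.988), and its groups did not overlap. Tfb1m and Hspa5 were named after their values were seen. Among the 40 partner and substrate genes tested, groups did not overlap for Atpsckmt, Tfb1m, Eef2 and Hspa5 alone. Over all tested genes, 9.48% did not overlap in either direction.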

How the data were processed

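The authors deposited FPKM, 1 table per library. The submitters' processing notes name TopHat2 2.1.1 and Cufflinks 2.2.1, with build mm10; annotation release, strand setting and handling of shared reads are not stated there. Group and replicate were read from each title. All 23559 genes above 0 gave whole fragments for some whole length (tolerance 0.002 of a fragment). The difference between labels was tested in limma 3.58.1 (R 4.3.3) on log2(FPKM + 1), using a mean-variance trend and the 11383 genes whose mean reached 1 FPKM, at a Benjamini-Hochberg threshold of 0.05. limma voom on recovered fragments was an alternative. The fit was tested on simulated data, with changes larger than any tested member showed, so that test does not bear on smaller ones. Fragment intervals are exact Poisson (95%), cover counting error only, and the floor is 3 fragments. Exons came from GENCODE and promoter windows from RefSeq (GRCm38.p6), read with Python 3.11.15. Members and gene lists were chosen with earlier results of these data known. Every tested member is named, and of the partners the 3 highest of each role. The reported fit did not use the replicate numbers, and whether they mark a pairing is not known.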

Additional observations from a re-analysis of the deposited data

How the results depend on the processing

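No member passed the test under any of the 16 alternatives. Subtracting library medians turned the members' median log2 difference to 0.047 (SD between libraries 0.04) and the sign of Mettl26 (0.0045), Mettl3 (0.019), Mettl14 (0.017) and Mettl25 (0.0083). Quantile normalization turned Mettl3 (0.015), Mettl14 (0.020) and Mettl25 (0.023). Library weights turned Mettl26 (0.045), Mettl21c (0.0038), Mettl5 (0.0096), Eef1akmt2 (-0.10), Mettl6 (-0.016), Vcpkmt (-0.0031) and Mettl18 (0.058). The cause was not tested.

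Leaving out 1 library at a time gave 0 to 3 genes past the test, 1 when library 3 labelled knockout was left out, 1 for library 1 and 3 for library 3 labelled wild type, and none of them was a member. The members' median then ran from -0.052 to 0.033. Mettl21e ran from -0.068, when library 2 labelled wild type was left out, to 0.63, when library 1 of that label was, where its unadjusted p was below 0.05 and the smallest adjusted p of a member was 0.365. Signs also turned for Eef1akmt2 (-0.20 to 0.20), Mettl1 (-0.10 to 0.12), Mettl11b (-0.025 to 0.12), Mettl13 (-0.066 to 0.056), Mettl14 (-0.051 to 0.0042), Mettl15 (-0.29 to 0.030), Mettl16 (-0.14 to 0.017), Mettl18 (-0.41 to 0.11), Mettl2 (-0.31 to 0.079), Mettl21a (-0.12 to 0.088), Mettl21c (-0.25 to 0.0073), Mettl23 (-0.056 to 0.14), Mettl25 (-0.13 to 0.062), Mettl26 (-0.13 to 0.051), Mettl3 (-0.067 to 0.019), Mettl6 (-0.044 to 0.092) and Mettl7a1 (-0.0044 to 0.15). All members that turned in any alternative had a reported difference of 0.16 or less in size, apart from Mettl21e. With 1 library left out, the difference of Mettl22 stayed between -0.11 and -0.09. It was smaller in size, at -0.0545, with library medians subtracted, and -0.079 with quantile normalization.

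With the replicate number as a block, 0 members and 0 of all genes passed and 472 genes had an unadjusted p below 0.05. Libraries of the same number did not deviate together (correlations 0.02, -0.04 and 0.02). Such correlations over all genes cannot exclude that the numbers mark a pairing or a batch. Library 3 was the shallowest of each label, at 8476591 fragments labelled knockout and 8842349 labelled wild type. Without a filter 23559 genes were tested and with at least 5 FPKM 7416, with 0 calls in both. The count of genes with an unadjusted p below 0.05, 523 as reported, was 987 without a filter, 339 with at least 5 FPKM, 1413 with library weights and 342 to 1356 with 1 library left out. Of the other gene lengths, the longest transcript was chosen after seeing the data; both lengths kept 9 of the 10 highest members. Depth limits the members under 1 FPKM, which rest on at most 19 fragments a library.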
